A study of Danio rerio with 20 samples.

Results

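The genes described here encode the secreted Wnt ligands, their frizzled receptors, other receptors and co-receptors, secreted antagonists, and the membrane-associated polarity proteins Vangl and Prickle. They were chosen by name only. A gene entered if its zebrafish symbol began with wnt or fzd plus a number, or with dkk, sfrp, vangl or prickle, or if it was ror1, ror2, ryk, ptk7a, ptk7b, lrp5, lrp6 or frzb. This rule found 63 of the 32057 gene IDs measured, namely 26 Wnt ligands, 13 frizzled receptors, 11 secreted antagonists, 6 co-receptors or other receptors and 7 core polarity genes.

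Transcripts were measured by poly(A) RNA sequencing of pooled whole zebrafish embryos at 8, 10, 12, 14 and 16 hours post fertilization (hpf), with 2 libraries per pool type and stage and 20 libraries in all. MPNP pools held about 50 un-genotyped embryos from intercrosses of mdm2+/- fish on the pnp-/- background, so that about 25% were expected to be mdm2-/- and the rest mdm2+/- or mdm2+/+. PNP pools of the same stages came from pnp-/- intercrosses. Embryos of both pool types were therefore puma-/-, noxa-/- and p21-/-, that is, without the apoptosis effectors Puma and Noxa and the cell cycle inhibitor p21, and no pool was wild type for these genes. Mdm2 is the ubiquitin ligase that restrains p53. The pools had different parents, so mdm2 genotype and differences between crosses cannot be told apart, and a change in the mdm2-/- embryos was diluted by the other embryos of the pool.

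Wnt ligands signal along several routes. In the canonical route, a ligand bound to a frizzled receptor and to the co-receptors Lrp5 or Lrp6 stabilizes beta-catenin, which patterns the ventrolateral mesoderm, the tail and the posterior nervous system of the fish embryo. In the planar cell polarity route, ligands such as Wnt11 and Wnt5 act through frizzled receptors, Ror2, Ryk and Ptk7 with Vangl and Prickle to orient cells as the gastrula narrows and lengthens. The stages sampled run from gastrulation at 8 hpf, through its end near 10 hpf, into the formation of somites and brain regions.

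Values are TPM, the authors' length-scaled transcript shares, with the same sum in every library. In each library 13080 to 15326 genes reached 1 TPM, and libraries of the same group correlated with r of 0.973 to 0.982 across genes. The mdm2 transcript ranged from 74.1 to 325 TPM (median 150.2) in the 10 MPNP libraries and from 61.2 to 125 TPM (median 86.0) in the 10 PNP libraries. Transcripts of bbc3 (puma), pmaip1 (noxa) and cdkn1a (p21) were present in both pool types. Their medians were 8.16, 7.86 and 8.4 TPM in MPNP and 1.7, 5.0 and 2.97 TPM in PNP, with overlapping ranges over the libraries. The labels do not describe the lesions, so these levels do not check the genotypes, and their pool differences were not examined further here. Each of the 9 marker lists for tissues of the embryo was detected, and 64 of their 66 genes reached 1 TPM in at least 1 library. In whole embryos, fewer cells of a type and less RNA per cell cannot be told apart.

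Changes were tested with limma on log2(TPM + 1), a scale on which the change of low genes is understated. Of the 63 genes, 44 had a mean of at least 1 TPM over the 20 libraries and were tested. They were 15 ligands, 12 frizzled receptors, 6 antagonists, 6 other receptors and 5 polarity genes, and the remaining 19 lay below this level. Benjamini-Hochberg adjustment ran over the full set of 14774 genes, "called" means an adjusted p under 0.05, and errors are standard errors. A gene that reached the level only through its late stages had to change over time, so counts over the tested genes are descriptions.

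**Figure D1:**
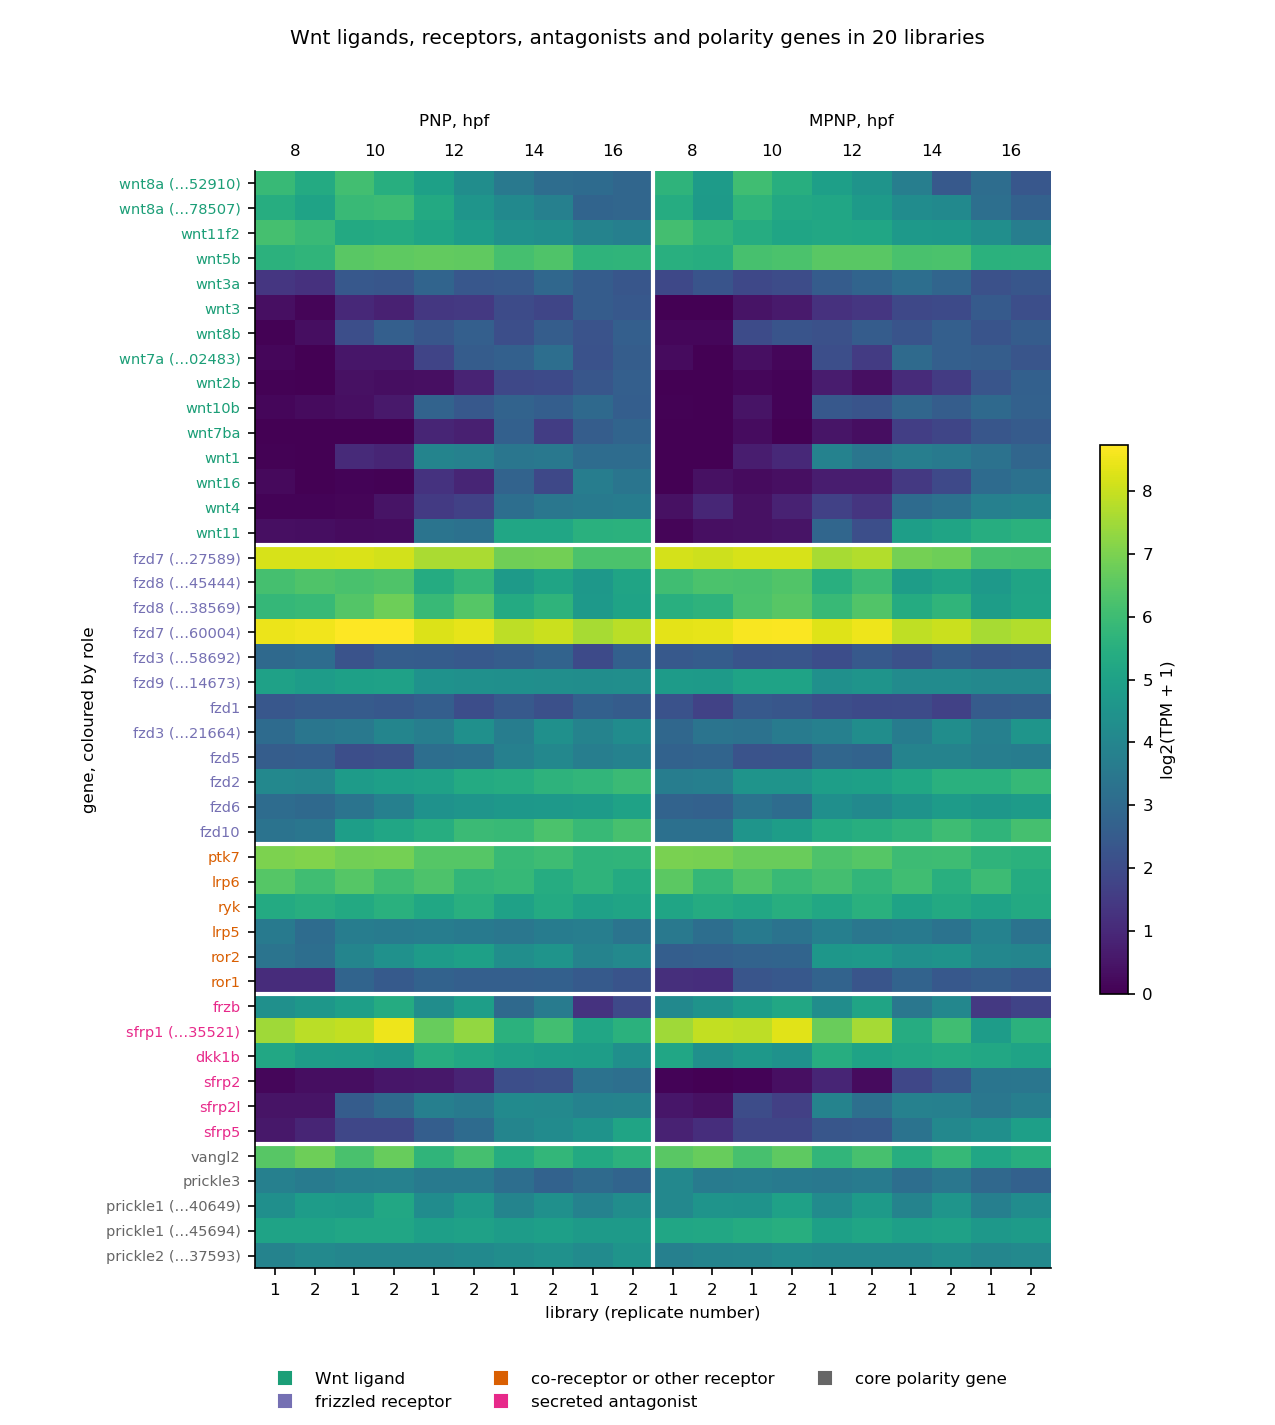
Expression of the 44 tested genes, as log2(TPM + 1), in each of the 20 libraries, with columns by pool type, stage in hpf and replicate number and genes ordered by role. The frizzled receptors fzd7 were the most abundant, most ligands were low at 8 hpf, and the MPNP and PNP columns of the same stage look alike.

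From 8 to 16 hpf the PNP embryos exchanged one set of Wnt ligands for another. The gastrula ligands wnt11f2 and wnt8a fell, wnt5b was abundant at every stage, and ligands of brain, somite and later tissues rose from almost nothing. With limma, 14 of the 15 tested ligands were called between 8 and 16 hpf, 11 of them higher and 3 lower. Across all tested genes 64.3% were called in this comparison, 37.7% higher and 26.6% lower. Most of the ligands called higher were low at 8 hpf and reached the mean level for testing only through later stages. They had to be higher at some later stage, and 11 of the 26 ligands lay below that level and were not tested. The ligand counts therefore describe the tested ligands, and setting them beside the shares over all genes tests nothing. For the same reason the p-values of these rising ligands below are no independent sign of a change.

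Among the ligands that fell was wnt11f2 (ENSDARG00000004256), the silberblick gene, which is needed for convergence and extension in the zebrafish gastrula. The PNP libraries held 70.4 and 58.6 TPM at 8 hpf, 38.6 and 40.6 at 10 hpf, 33.9 and 27.0 at 12 hpf, 20.2 and 18.9 at 14 hpf, and 14.1 and 12.8 at 16 hpf. Both libraries of each later stage lay below both at 8 hpf, and the fall from 8 to 16 hpf was -2.18 ± 0.19 on the log2 scale (limma, adjusted p = 3.17e-07). Both wnt8a IDs fell as well. The zebrafish wnt8a locus, which patterns ventrolateral and posterior mesoderm, encodes a pair of open reading frames, so reads of the 2 IDs may be shared. wnt8a (ENSDARG00000052910) measured 57.3 and 38.9 TPM in PNP at 8 hpf, 66.4 and 43.0 at 10 hpf, and 7.25 and 6.34 at 16 hpf. wnt8a (ENSDARG00000078507) measured 41.9 and 32.4 TPM at 8 hpf, 59.4 and 61.6 at 10 hpf, and 6.03 and 6.4 at 16 hpf. For both IDs the PNP libraries at 16 hpf lay below those at 8 and 10 hpf. The falls were -2.63 ± 0.44 (adjusted p = 0.00015) and -2.39 ± 0.28 (adjusted p = 5.93e-06) by limma.

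wnt5b (ENSDARG00000102464), the pipetail gene, which acts in extension of the tail and in cartilage, supplied between 21.6% and 45.5% of the summed ligand TPM in the PNP libraries. It measured 47.7 and 51.4 TPM in PNP at 8 hpf, 88.5 and 93.2 at 10 hpf, 98.4 and 96.8 at 12 hpf, 69.8 and 79.6 at 14 hpf, and 50.3 and 51.6 at 16 hpf. Its course was a hump, with the libraries at 12 hpf highest and those at 8 and 16 hpf at similar levels. The rise from 8 to 10 hpf was 0.86 on the log2 scale (limma, adjusted p = 2.03e-05), and the difference between 8 and 16 hpf was 0.04 ± 0.09 (adjusted p = 0.708).

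The largest rise of a ligand was that of wnt11 (ENSDARG00000014796), a gene known from muscle and from the neural crest of the fish trunk. PNP libraries held 0.28 and 0.24 TPM at 8 hpf, 0.18 and 0.22 at 10 hpf, 9.37 and 8.62 at 12 hpf, 34.8 and 35.1 at 14 hpf, and 45.3 and 46.3 at 16 hpf. The gene was close to 0 through 10 hpf and appeared between 10 and 12 hpf, with a rise from 8 to 16 hpf of 5.22 ± 0.20 (limma, adjusted p = 2.05e-10). Of the summed TPM of the pair wnt11 and wnt11f2, wnt11 made up 21.7% and 24.2% in the PNP libraries at 12 hpf, 63.3% and 65.0% at 14 hpf, and 76.3% and 78.4% at 16 hpf. Thus wnt11f2 was the higher of the pair in all 12 libraries up to 12 hpf and wnt11 in all 8 at 14 and 16 hpf.

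Several ligands of the midbrain-hindbrain boundary and dorsal neural tube appeared at the same interval. wnt1, which maintains that boundary, measured 0.04 and 0 TPM in PNP at 8 hpf, 1.04 and 0.89 at 10 hpf, 14.3 and 13.2 at 12 hpf, 9.68 and 10.3 at 14 hpf, and 7.46 and 7.5 at 16 hpf. It was highest at 12 hpf and rose by 2.91 ± 0.18 between 10 and 12 hpf (limma, adjusted p = 2.85e-07). wnt10b, its neighbour in the genome and in expression, rose by 2.12 over that step, and wnt7a (ENSDARG00000002483) by 1.64. wnt8b, a forebrain and hindbrain ligand, came earlier, with 0.04 and 0.26 TPM at 8 hpf and 3.25 and 5.3 at 10 hpf, a rise of 2.18 ± 0.25 (limma, adjusted p = 4.05e-05). wnt4 came later, from 1.82 and 2.22 TPM at 12 hpf to 7.95 and 9.94 at 14 hpf and 10.9 and 11.6 at 16 hpf. wnt16, which in zebrafish acts in the somites ahead of blood stem cell formation, measured 0.16 and 0 TPM at 8 hpf and 12.1 and 9.55 at 16 hpf. wnt3a, a canonical ligand of the tailbud and dorsal neural tube, measured 1.58 and 1.37 TPM in PNP at 8 hpf and 4.78 and 4.06 at 16 hpf, a rise of 1.13 ± 0.21 (limma, adjusted p = 0.000317). In MPNP it measured 2.7 and 3.84 TPM at 8 hpf and 3.49 and 4.0 at 16 hpf, a difference of 0.16 (adjusted p = 0.502), and the 2 changes were not tested against each other. From 8 to 16 hpf wnt4 rose by 3.52 ± 0.22 and wnt16 by 3.45 ± 0.26 (limma).

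Counted by a level of 1 TPM in both PNP libraries, 5 of the 26 ligands were detected at 8 hpf, 6 at 10 hpf, 12 at 12 hpf, 15 at 14 hpf and 17 at 16 hpf. Those at 8 hpf were wnt11f2, wnt3a, wnt5b and both wnt8a IDs. wnt8b joined at 10 hpf, followed at 12 hpf by wnt1, wnt3, wnt4, wnt7a (ENSDARG00000002483), wnt10b and wnt11. wnt2b, wnt7ba and wnt16 reached this level at 14 hpf, and wnt7b and wnt10a at 16 hpf. The order was the same in MPNP up to 14 hpf, where the counts were 5, 6, 12 and 15. At 16 hpf the MPNP count was 20, since wnt5a, wnt9a and wnt7a (ENSDARG00000044827) also reached 1 TPM in both libraries. In PNP each of these 3 had 1 of its libraries just below it, at 0.99, 0.7 and 0.87 TPM. The summed ligand TPM changed little beside this turnover, from a mean of 202 at 8 hpf to 259 at 10 hpf and 197 at 16 hpf in PNP.

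**Figure D2:**
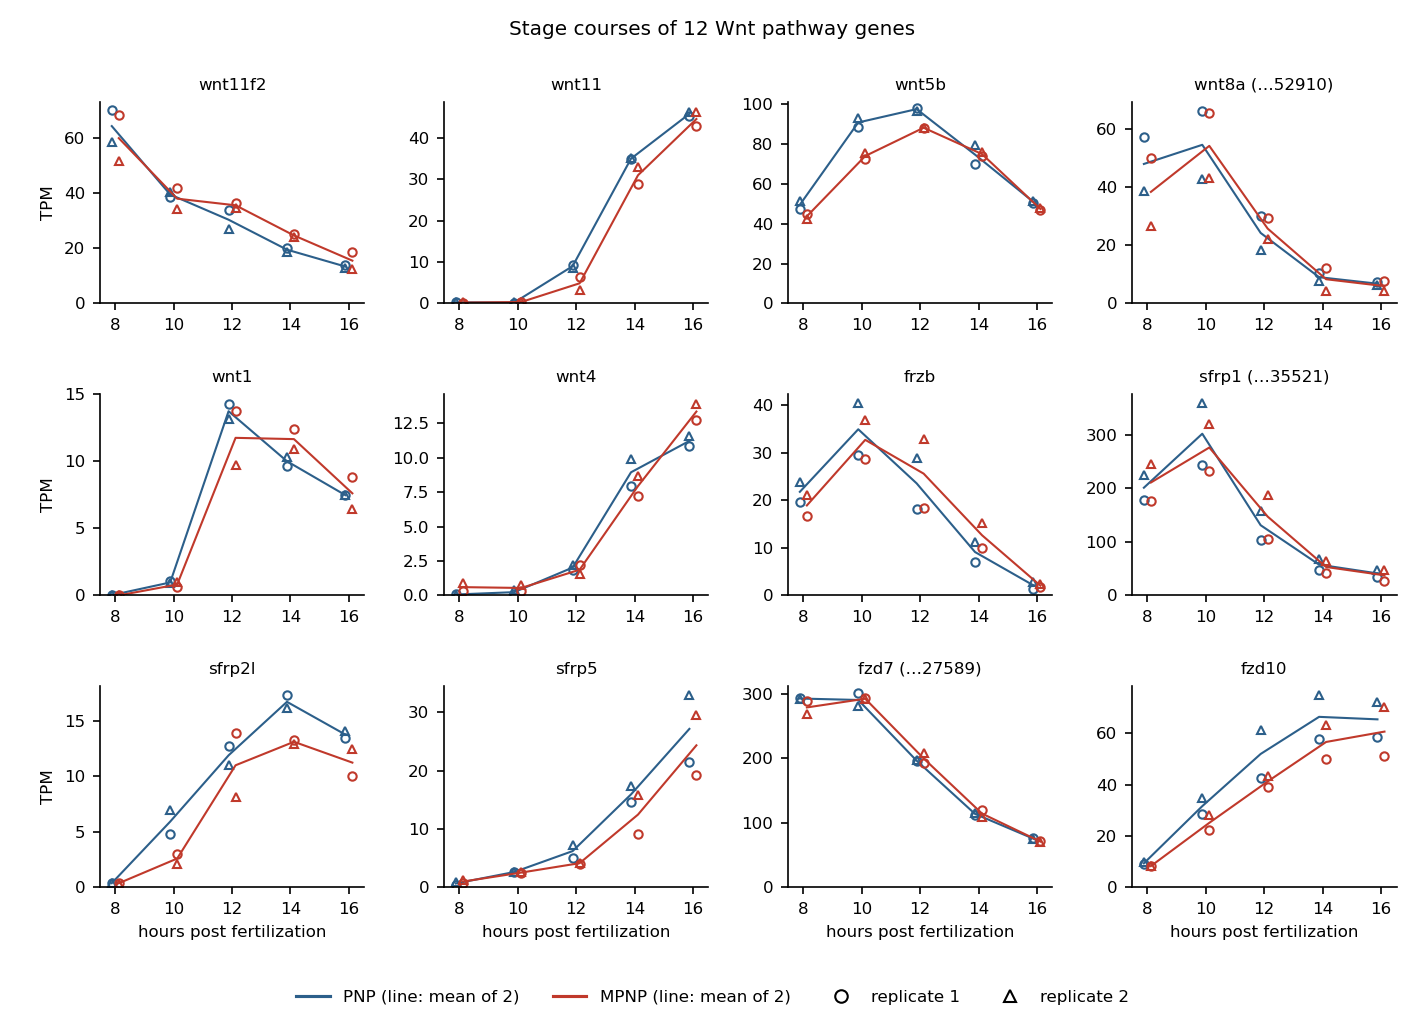
TPM of 12 genes in every library against stage in hpf, with MPNP and PNP libraries as separate points and lines through the group means. wnt11f2 falls from 58.6 to 70.4 TPM at 8 hpf in PNP while wnt11 climbs to 45.3 to 46.3 TPM at 16 hpf, and frzb and sfrp1 peak at 10 hpf before sfrp2l and sfrp5 are high.

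The frizzled receptors, which bind the ligands with their cysteine-rich domain, changed in both directions. With limma 11 of the 12 tested were called between 8 and 16 hpf in PNP, 5 higher and 6 lower. Across all tested genes 64.3% were called, 37.7% higher and 26.6% lower. The 2 fzd7 genes, receptors used in both routes during gastrulation, supplied most of the frizzled transcripts. fzd7 (ENSDARG00000060004) measured 357 and 375 TPM in PNP at 8 hpf, 417 and 423 at 10 hpf, 309 and 341 at 12 hpf, 230 and 263 at 14 hpf, and 192 and 224 at 16 hpf. fzd7 (ENSDARG00000027589) measured 293 and 292 TPM at 8 hpf, 301 and 280 at 10 hpf, 196 and 197 at 12 hpf, 113 and 115 at 14 hpf, and 75.9 and 75.1 at 16 hpf. Both were lowest at 16 hpf, and the second fell more steeply, by -1.94 ± 0.09 (limma, adjusted p = 6.56e-10) against -0.81 ± 0.11 (adjusted p = 3.12e-05). Its share of the frizzled TPM went from 33.4% to 13.8%, while that of the first went from 41.7% to 37.9%. The difference between these falls was not tested.

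Both fzd8 genes and fzd9 (ENSDARG00000014673) also fell, fzd8 (ENSDARG00000045444) by -1.37 ± 0.21, fzd8 (ENSDARG00000038569) by -0.98 ± 0.23 and fzd9 by -0.62 ± 0.09. The receptors that rose did so from low levels. fzd10, a receptor of the dorsal neural tube, measured 8.98 and 9.77 TPM in PNP at 8 hpf, 28.4 and 34.9 at 10 hpf, and 58.6 and 72.2 at 16 hpf. Every PNP library at 10 hpf or later lay above both at 8 hpf, and the rise to 16 hpf was 2.67 ± 0.21 (limma, adjusted p = 1.45e-07). fzd6, which acts in polarity of skin and neural tube in the mouse, went from 7.49 and 6.96 TPM at 8 hpf to 26.6 and 31.4 at 16 hpf, and fzd2 from 15.7 and 15.2 to 53.2 and 61.2. These rises were 1.86 ± 0.16 and 1.82 ± 0.15 on the log2 scale. fzd5, an eye field receptor, dipped before it rose, from 4.9 and 5.04 TPM at 8 hpf to 3.32 and 3.5 at 10 hpf and 12.4 and 13.5 at 16 hpf. fzd1 was not called, with a difference of 0.16 ± 0.20 (adjusted p = 0.509).

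Of the co-receptors, lrp5 did not pass the test between 8 and 16 hpf, and lrp6 passed only with the replicate number as a block. lrp6 measured 84.0 and 65.5 TPM in PNP at 8 hpf and 50.6 and 39.2 at 16 hpf, a difference of -0.72 ± 0.31 (limma, adjusted p = 0.0592; with the block 2.47e-06). lrp5 lay between 7.55 and 12.2 TPM in all 10 PNP libraries. The pseudokinase receptor ryk, which binds Wnt ligands without a frizzled-type domain, lay between 30.6 and 45.4 TPM in PNP, with a difference of -0.36 ± 0.17 (adjusted p = 0.0812). ryk passed with the block (adjusted p = 0.000216) and once the TPM were rescaled by size factors (-0.50, adjusted p = 0.000731). ptk7, a pseudokinase needed for polarity in the gastrula, was the clearest loss of this class. Its PNP libraries held 126 and 132 TPM at 8 hpf, 116 and 120.0 at 10 hpf, 85.5 and 84.3 at 12 hpf, 57.8 and 63.4 at 14 hpf, and 49.9 and 51.3 at 16 hpf. Each stage lay below the one before it, with a fall of -1.34 ± 0.09 (limma, adjusted p = 2.28e-08). The annotation holds a single PTK7 ID, so it is not known which zebrafish copy it is. The kinase receptor ror1 rose by 1.25 ± 0.18 (adjusted p = 3.86e-05). It held 1.16 and 1.15 TPM at 8 hpf and had reached 6.1 and 4.52 by 10 hpf.

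The secreted antagonists changed in both directions. Their summed TPM in PNP went from a mean of 257 at 8 hpf and 372 at 10 hpf to 120 at 16 hpf. That of the ligands was 202 at 8 hpf and 197 at 16 hpf. Of the 6 tested, 3 were called higher and 2 lower between 8 and 16 hpf in PNP, beside 37.7% and 26.6% of all genes. sfrp1 (ENSDARG00000035521), of the frizzled-related proteins that bind ligands outside the cell, measured 178 and 224 TPM at 8 hpf, 244 and 359 at 10 hpf, 104 and 158 at 12 hpf, 47.0 and 67.7 at 14 hpf, and 35.2 and 46.8 at 16 hpf. It held 78.1% of the antagonist TPM at 8 hpf and 34.1% at 16 hpf, and fell by -2.27 ± 0.37 (limma, adjusted p = 0.000109). frzb, from the same family, peaked at the same stage, with 29.5 and 40.4 TPM at 10 hpf and 1.43 and 2.79 at 16 hpf. Its fall from 8 hpf was -2.90 ± 0.34 (adjusted p = 5.95e-06). In contrast sfrp5 rose from 0.49 and 0.86 TPM at 8 hpf to 21.4 and 32.9 at 16 hpf, a change of 4.05 ± 0.27 (adjusted p = 3.05e-08). sfrp2l rose by 3.42 ± 0.22, having already reached 4.85 and 7.0 TPM at 10 hpf from 0.38 in both libraries at 8 hpf. sfrp2 rose by 3.02 ± 0.21 and was still at 0.49 and 0.84 TPM at 12 hpf, before reaching 3.31 and 3.46 at 14 hpf and 8.79 and 8.12 at 16 hpf. dkk1b, which blocks the Lrp co-receptors and is needed for the fish head, was not called, at 36.3 and 28.3 TPM at 8 hpf and 28.3 and 19.5 at 16 hpf (-0.43 ± 0.23, adjusted p = 0.118), and passed with the block (adjusted p = 0.0150).

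Core polarity genes were mostly lower at the later stages. Of the 5 tested, 3 were called lower and 1 higher from 8 to 16 hpf in PNP, beside 26.6% and 37.7% of all genes. vangl2, the trilobite gene required for convergence and extension, measured 87.7 and 111 TPM at 8 hpf, 72.8 and 104 at 10 hpf, 50.8 and 70.1 at 12 hpf, 41.3 and 53.3 at 14 hpf, and 38.5 and 47.7 at 16 hpf. Within each replicate number every stage lay below the one before it, and the fall was -1.18 ± 0.25 (limma, adjusted p = 0.000966). prickle3 fell by -0.79 ± 0.18 (adjusted p = 0.0015) and prickle1 (ENSDARG00000045694) by -0.31 ± 0.09 (adjusted p = 0.00993). prickle1 (ENSDARG00000040649), the other gene of that symbol, measured 19.3 and 27.7 TPM at 8 hpf and 13.5 and 18.3 at 16 hpf, a difference of -0.53 ± 0.32 (adjusted p = 0.157) that passed with the block (adjusted p = 1.19e-05) and after rescaling (-0.67, adjusted p = 0.0274). prickle2 (ENSDARG00000037593) rose by 0.33 ± 0.14 (adjusted p = 0.0455), a call lost after rescaling (0.20, adjusted p = 0.0958), without PNP replicate 1 at 8 hpf (adjusted p = 0.249) and without PNP replicate 2 at 16 hpf (adjusted p = 0.342).

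Over all 5 roles, 37 of the 44 tested genes were called between 8 and 16 hpf in PNP, 22 higher and 15 lower. Of all genes 64.3% were called, 37.7% higher and 26.6% lower. The median difference of the 44 genes was 0.26, against 0.17 over all genes. Genes low at 8 hpf, most of the ligands called higher among them, were tested because of their later stages. The counts in this paragraph and the next are thus partly set by the filter and are descriptions. In MPNP 35 were called, 21 higher and 14 lower, where 67.0% of all genes were (40.1% higher, 26.9% lower). With the replicate number as a block 41 were called in PNP, 22 higher and 19 lower, against 77.7% of all genes. Rescaling by size factors shifted the median of all genes by -0.12 in PNP, and 21 of the tested genes were then called higher and 17 lower. A test of any change over the 5 stages in PNP called 35 of the 44, against 63.5% of all genes. The 9 not called were lrp5, lrp6, ryk, fzd1, both fzd3 IDs, dkk1b, prickle1 (ENSDARG00000040649) and prickle2 (ENSDARG00000037593). With the block 42 were called, against 83.1% of all genes, and the genes not called were lrp5 and fzd1.

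By step, limma called 15 of the tested genes from 8 to 10 hpf (13 higher), 21 from 10 to 12 hpf (14 higher), 15 from 12 to 14 hpf (8 higher) and 6 from 14 to 16 hpf (2 higher). The shares over all genes were 23.3% (14.6% higher), 23.7% (15.0% higher), 9.19% (5.5% higher) and 4.78% (2.95% higher). In MPNP the last step had 11 calls, against 8.89% of all genes. With the replicate number as a block the last 2 steps had 29 and 15 calls, against 23.9% and 14.2% of all genes. The count from 10 to 12 hpf was 12 without either PNP library at 10 hpf. The count from 14 to 16 hpf was 2 without PNP replicate 2 at 14 hpf or without PNP replicate 1 at 16 hpf. In that last step wnt16 rose by 1.23 and sfrp2 by 1.11, while frzb, wnt8a (ENSDARG00000078507), fzd7 (ENSDARG00000027589) and wnt5b fell by 1.70, 1.11, 0.59 and 0.54 on the log2 scale.

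The second comparison, MPNP against PNP at the same stage, asked how expression changed in pools that contained mdm2-/- embryos. Of the 44 tested genes 1, the Wnt5 receptor gene ror2, was called, lower in MPNP at 10 hpf and on average over the stages. At the other stages limma called 0 of them. The number with an unadjusted p under 0.05 was 5 at 8 hpf, 7 at 10 hpf, 2 at 12 hpf, 3 at 14 hpf, 3 at 16 hpf and 11 on average. The share of all genes with an unadjusted p under 0.05 is not given here, so these counts are descriptions. Over all genes 0.311% were called at 8 hpf, 0.203% at 10 hpf (0.0745% lower), 0.291% at 12 hpf, 0.684% at 14 hpf, 1.39% at 16 hpf and 5.29% on average (2.67% lower). The median average difference of the tested genes was -0.07, with 35 of 44 below 0 and 9 above, beside a median of -0.03 over all genes, of which 40.4% lay above 0.

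Ror2 (ror2, ENSDARG00000076227) is a receptor tyrosine kinase family member that binds Wnt5 ligands in the polarity route. At 8 hpf the MPNP libraries held 5.03 and 5.44 TPM and the PNP libraries 9.21 and 7.96. At 10 hpf the MPNP libraries held 5.82 and 5.95 TPM and the PNP libraries 14.8 and 20.4. At 12 hpf the values were 23.9 and 25.6 TPM in MPNP and 26.4 and 29.8 in PNP. The pools did not overlap at any of these 3 stages, and both MPNP libraries at 10 hpf lay below both PNP libraries at 8 hpf. At 14 hpf MPNP held 19.9 and 21.5 TPM and PNP 19.1 and 21.7, and at 16 hpf MPNP held 15.4 and 14.8 and PNP 14.0 and 16.3. The pools overlapped at these last 2 stages. The MPNP mean was 61.0% of the PNP mean at 8 hpf, 33.5% at 10 hpf, 88.0% at 12 hpf, 102% at 14 hpf and 99.7% at 16 hpf.

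The ror2 difference at 10 hpf was -1.42 ± 0.14 on the log2 scale (limma, adjusted p = 0.0012). It passed without each of the 4 libraries of that stage in turn, with values from -1.63 to -1.20. The call was lost when a developmental offset of each library, in hours along the mean course of other genes, was added as a covariate (-1.28, adjusted p = 0.221). It was also lost when only the 4 libraries of that stage were fitted (-1.42, adjusted p = 0.991). The spread in that fit was estimated from 4 libraries, too few to decide, so no conclusion is drawn from this loss. At 10 hpf the offset was -0.209 and -0.163 h in the MPNP libraries and 0.115 and 0.257 h in the PNP libraries. The offset thus partly tracks the pool type, and a call lost with it, here or below, cannot tell timing from pool type. At 8 hpf the ror2 difference was -0.62 ± 0.14 (adjusted p = 0.12, with the replicate block 0.0308, after rescaling 0.0438). The average over the stages was -0.44 ± 0.06 (adjusted p = 0.00117). That call was lost with the offset (-0.37, adjusted p = 0.174) and with the libraries numbered 1 alone (-0.39, adjusted p = 0.374) or numbered 2 alone (-0.49, adjusted p = 0.30). The fits of a single replicate number assumed the same pool difference at every stage, so a change of it with stage counted as spread. Their standard errors for ror2 were 0.19 and 0.21, and no conclusion is drawn from these losses. The ror2 difference also varied with stage in an F test over the 5 stages (limma, adjusted p = 0.0422), where 0.102% of all genes were called. This F test call was lost in 19 of the 20 fits that left out a library and held only without PNP replicate 1 at 10 hpf.

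Over time, ror2 was called at both of the first 2 steps in PNP and at the second in MPNP. Between 8 and 10 hpf ror2 rose by 0.94 ± 0.14 in PNP (limma, adjusted p = 0.00045), and in MPNP the difference was 0.14 ± 0.14 (adjusted p = 0.553). Between 10 and 12 hpf it rose by 1.90 ± 0.14 in MPNP (adjusted p = 1.98e-06) and by 0.66 in PNP (adjusted p = 0.00516). The difference between the steps was not tested on its own. By 12 hpf both pool types were at their highest level.

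**Figure D3:**
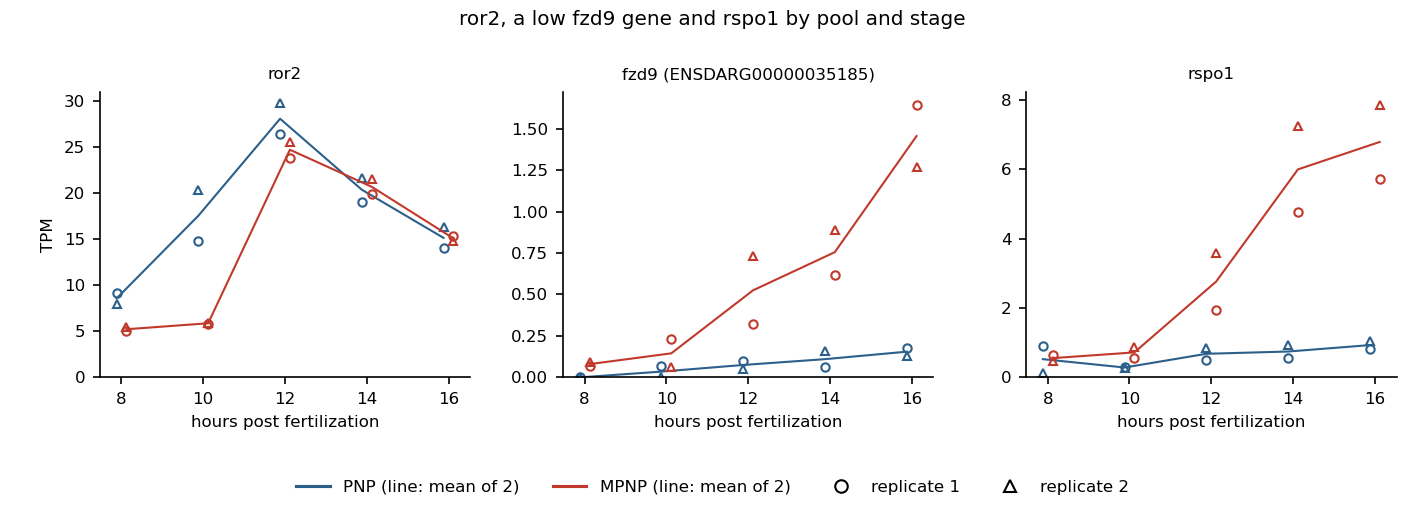
TPM in every library against stage in hpf for ror2, fzd9 (ENSDARG00000035185) and rspo1, with lines through the group means. At 10 hpf both MPNP libraries for ror2 lie at 5.82 and 5.95 TPM, below 14.8 and 20.4 in PNP, whereas fzd9 and rspo1 are higher in MPNP at the late stages.

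The other genes of the polarity route did not show a difference of this size at 10 hpf. wnt5b, a ligand of Ror2, held 72.3 and 75.7 TPM in MPNP at 10 hpf and 88.5 and 93.2 in PNP, and the pools did not overlap there. Its difference was -0.29 ± 0.09 (limma, adjusted p = 0.27), and it was called only with the replicate block (adjusted p = 0.0453). The antagonist sfrp2l held 3.05 and 2.15 TPM in MPNP and 4.85 and 7.0 in PNP, a difference of -0.94 ± 0.22 (adjusted p = 0.129; with the block 0.0393). With the block, 3 tested genes were thus called lower at 10 hpf, where 3.01% of all genes were called and 2.02% were called lower. vangl2 held 71.7 and 92.9 TPM in MPNP at 10 hpf and 72.8 and 104 in PNP, and ryk 37.0 and 43.7 against 38.3 and 45.4, so that the pools overlapped for both.

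Marker levels moved beside these values. At 10 hpf the summed TPM of the 11 tailbud and presomitic mesoderm genes was 1158 and 1223 in MPNP and 1308 and 1358 in PNP. That of the 9 somite and muscle genes was 129 and 134 against 146 and 162. That of the 8 notochord and axial genes was 294 and 333.9 against 334 and 381, so that these pools nearly touched. The MPNP sums were lower in these 3 of the 9 lists, higher in 1 (endoderm) and overlapping in 5. With 2 libraries per pool type, sums can easily lie apart by chance at any stage, and no such share over all genes was computed. The developmental offset was read from all tested genes outside the set. Its MPNP minus PNP difference was -0.372 h at 10 hpf and -0.436 h at 12 hpf. It was -0.098 and -0.166 h at 8 and 14 hpf, and 0.127 h, of the opposite sign, at 16 hpf. The offset is read from expression alone, so slower development and other differences between the pools cannot be told apart by it. The part of the markers in the ror2 difference was not tested, and the fit with the offset is given above.

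With the replicate block, 8 of the 44 tested genes were called in the average over the stages, against 17.4% of all genes (10.4% lower). Of these, 7 were lower in MPNP, namely ror2, fzd2, fzd10, sfrp2l, wnt5b, fzd6 and fzd1, and 1, prickle1 (ENSDARG00000045694), was higher. Apart from ror2 their differences lay between -0.34 (sfrp2l) and 0.10. fzd2 differed by -0.24 ± 0.07 (limma, adjusted p = 0.0573, and 0.00227 once the block was added). It was also called without the block once the TPM were rescaled (-0.22, adjusted p = 0.00922). The share of all genes called after rescaling is not given here. For fzd2 the MPNP libraries lay below the PNP libraries at 8, 10 and 12 hpf, with 12.1 and 12.5 against 15.7 and 15.2 TPM at 8 hpf. fzd10 differed by -0.22 ± 0.10 (adjusted p = 0.237, and 0.00612 with the block), and fzd1 by -0.27 ± 0.09 (0.111 and 0.0381). prickle1 (ENSDARG00000045694) differed by 0.10 ± 0.04 (0.206 and 0.0432) and was higher in MPNP at 10 hpf, at 40.2 and 43.1 against 35.1 and 34.6 TPM. At single stages the block called 2 genes at 8 hpf, ror2 and fzd8 (ENSDARG00000038569), 1 at 12 hpf, wnt11, 0 at 14 hpf and 1 at 16 hpf, dkk1b. The shares over all genes with the block were 3.92%, 1.38%, 1.78% and 3.49%.

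**Figure D4:**
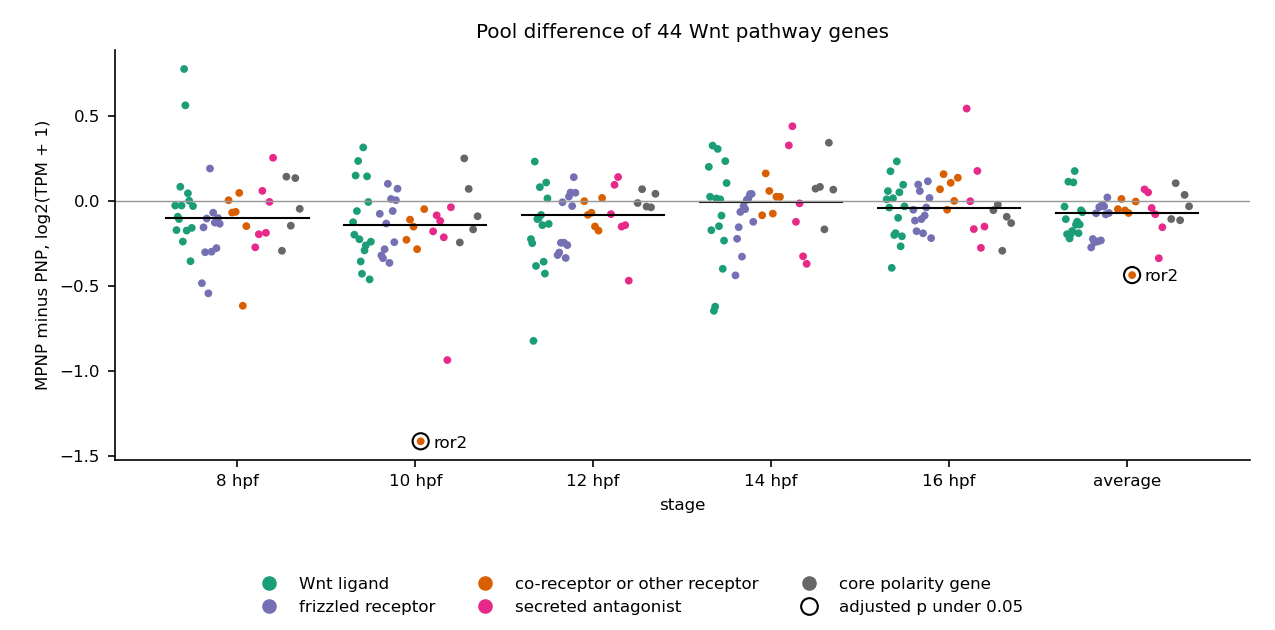
MPNP minus PNP difference on the log2(TPM + 1) scale for each of the 44 tested genes at the 5 stages and on average, 1 point per gene. Most points lie within the width of the cloud around 0, and the circled ror2 values of -1.42 at 10 hpf and -0.44 on average are those called with neither block nor rescaling.

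At 12 hpf most genes that rose during development had lower values in MPNP. wnt11, just appearing at this stage, held 6.43 and 3.28 TPM in MPNP and 9.37 and 8.62 in PNP, a difference of -0.82 ± 0.20 (limma, adjusted p = 0.127; with the block 0.0489). Its share of the wnt11 and wnt11f2 pair was 14.9% and 8.63% in MPNP against 21.7% and 24.2% in PNP, and at 16 hpf 69.5% and 79.0% against 76.3% and 78.4%. At 14 hpf this share was 53.5% and 57.6% in MPNP against 63.3% and 65.0% in PNP. The pools were thus apart at 12 and 14 hpf and overlapped by 16 hpf. Of the 22 genes that rose from 8 to 16 hpf in PNP, 21 had a 12 hpf difference below 0, with a median of -0.20, and of the 15 that fell 4 did, with a median of 0.05. Over all genes 43.9% lay above 0 at 12 hpf, and the share among all rising genes was not computed. Across the 44 genes the 12 hpf difference and the PNP change from 8 to 16 hpf, which share no libraries, correlated with Pearson r of -0.77 and Spearman rho of -0.78. At 10 hpf r was -0.04 and at 14 hpf -0.48, and over all genes r was -0.19, -0.28 and -0.14 at 10, 12 and 14 hpf. Genes are not independent replicates, and these values only describe the libraries. The offset was -0.372 h at 10 hpf, where r was -0.04, and -0.436 h at 12 hpf. At 14 hpf, where r was -0.48, it was -0.166 h. The sums of 4 of the 9 marker lists stood apart at 12 hpf. The MPNP sums were lower for the somite and muscle markers, at 157 to 178 TPM against 202 to 204 in PNP, for the tailbud markers, at 934 to 955 against 1019 to 1041, and for the notochord and axial markers, at 240.3 to 242 against 265 to 269. They were higher for the germ cell markers, at 20.6 to 22.5 TPM against 14.8 to 18.8. The part of the offset and of these markers in the relation was not tested.

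**Figure D5:**
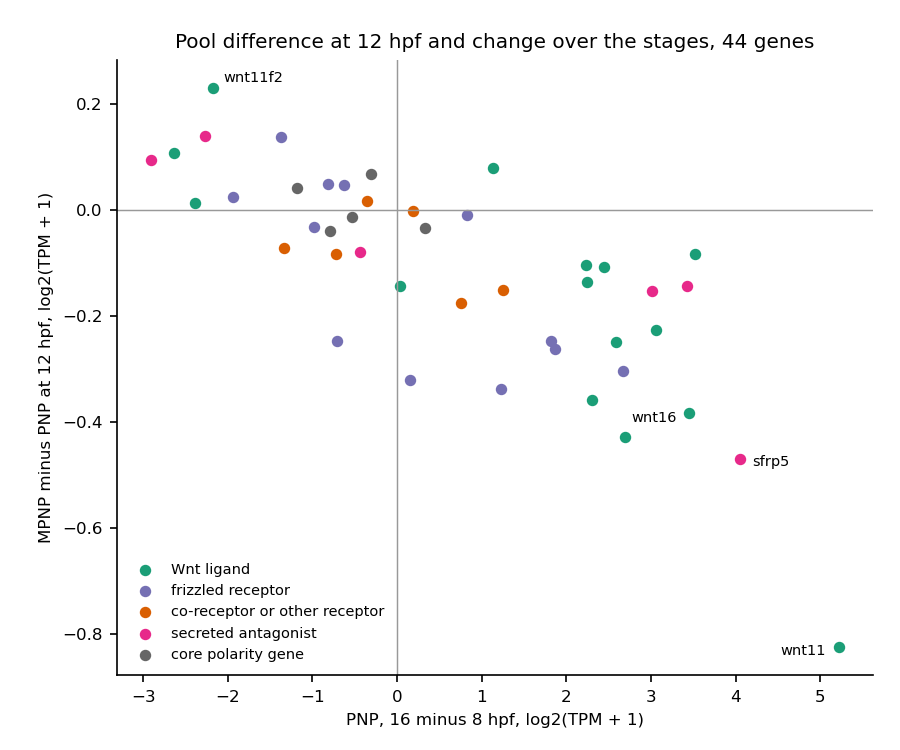
MPNP minus PNP difference at 12 hpf against the PNP change from 8 to 16 hpf for the 44 tested genes, both on the log2(TPM + 1) scale. Points slope downward (r = -0.77): wnt11, with a rise of 5.22, has a difference of -0.82, and wnt11f2, with a fall of -2.18, lies above 0.

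The 19 genes under the filter had means over the 20 libraries from 0.0145 TPM (wnt2ba) to 0.846 TPM (prickle2, ENSDARG00000020982), and their highest single value was 3.45 TPM, for wnt9a in an MPNP library at 16 hpf. Among them 2 were called when every gene with a TPM above 0 in any library was tested, a setting with 26082 genes. fzd9 (ENSDARG00000035185), a frizzled receptor, was low in every library. The MPNP libraries held 0.07 and 0.09 TPM at 8 hpf, 0.23 and 0.06 at 10 hpf, 0.32 and 0.73 at 12 hpf, 0.62 and 0.89 at 14 hpf, and 1.64 and 1.27 at 16 hpf. The PNP libraries held 0 and 0 TPM at 8 hpf, 0.07 and 0 at 10 hpf, 0.1 and 0.05 at 12 hpf, 0.06 and 0.16 at 14 hpf, and 0.18 and 0.13 at 16 hpf. From 12 hpf on every MPNP library lay above every PNP library of any stage. In this setting the difference was 1.08 ± 0.12 at 16 hpf (limma, adjusted p = 0.00052), where 1.44% of genes were called, and 0.50 ± 0.06 on average (adjusted p = 0.00026), where 3.36% were. Both calls held without each library in turn. At 14 hpf the difference was 0.66 ± 0.12 (adjusted p = 0.0365, with 0.537% of genes called), and it was lost in 13 of 20 such fits. The other fzd9 ID (ENSDARG00000014673), with a mean of 23.0 TPM, was higher than this one in 20 of 20 libraries. Whether the 2 IDs are alike enough in sequence to share reads was not examined. dkk3 (ENSDARG00000103591) was lower in MPNP at 14 hpf in the same setting, at 0.18 and 0.1 against 0.42 and 0.62 TPM (-0.41 ± 0.08, adjusted p = 0.0404; with the block 0.129). This call also failed to hold without each library in turn, with differences from -0.51 to -0.32. At 16 hpf its pools overlapped, at 0.42 and 0.27 TPM in MPNP and 0.31 and 0.34 in PNP.

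The rest of the Wnt pathway was described with 5 lists of genes. In the developmental comparison 6 of 7 tested genes of Wnt secretion and release were called (4 higher, 2 lower), 3 of 4 of the R-spondin and LGR list (2 and 1), 22 of 27 canonical signal transducers (5 and 17), 22 of 27 canonical target genes (8 and 14) and 20 of 29 polarity partners (11 and 9). Over all genes 64.3% were called in this comparison, 37.7% higher and 26.6% lower. wif1, a secreted Wnt inhibitor, rose by 3.52, and gpc4, the knypek glypican of gastrulation movements, fell by 1.45 on the log2 scale. Among targets sp5l, an early transcriptional target of wnt8a, fell by 3.57, and gbx2, a hindbrain gene, rose by 3.79. Among polarity partners ankrd6a, a diversin gene, fell by 2.99, and the flamingo-type cadherin celsr1b rose by 1.91.

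Between the pools, 1 of 7 secretion genes, 1 of 4 R-spondin genes, 3 of 27 transducers, 4 of 27 targets and 1 of 29 polarity partners were called in the average, against 5.29% of all genes. With the block these counts were 2, 1, 8, 10 and 4, against 17.4% of all genes. The target list holds 3 genes of the set itself, both wnt8a IDs and dkk1b. The transducers called were nkd1, an inhibitor of Dishevelled, at -0.29 ± 0.05 (limma, adjusted p = 0.00319), tcf7, a DNA-binding partner of beta-catenin, at -0.30 ± 0.05 (adjusted p = 0.00486), and gsk3bb, a kinase gene, at -0.50 ± 0.09 (adjusted p = 0.00511). All 3 were lower in MPNP and all 3 calls were lost with the developmental offset as a covariate, with differences of -0.31 (adjusted p = 0.117), -0.31 (adjusted p = 0.207) and -0.44 (adjusted p = 0.331). wif1 was lower by -0.37 ± 0.09 (adjusted p = 0.0259; with the offset -0.30, adjusted p = 0.707), and its call was lost in 11 of the 20 fits that left out a library. nkd1 and tcf7 also stand in the target list, whose other calls were sp8 (ENSDARG00000056666) and myc (ENSDARG00000007241). sp8 was lower by -0.28 (adjusted p = 0.0256), a call lost in 10 of the 20 fits that left out a library (adjusted p up to 0.0625) and with the offset (-0.25, adjusted p = 0.643). myc was higher by 0.40 ± 0.07 (adjusted p = 0.00275; with the offset 0.44, adjusted p = 0.0954). The polarity partner called was jun, which was higher by 0.66 ± 0.06 (limma, adjusted p = 2.61e-05). From 8 to 16 hpf its differences were 0.78, 0.46, 0.19, 0.88 and 1.02, and those at 8, 14 and 16 hpf were called. The 8 hpf call was lost in 18 of the 20 fits that left out a library. The medians of the 5 lists were -0.03, -0.04, -0.06, -0.11 and -0.02, beside -0.03 over all genes.

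In the R-spondin list rspo1 differed most. R-spondins are secreted proteins that keep frizzled receptors and Lrp6 at the cell surface by way of Lgr receptors. rspo1 held 1.93 and 3.59 TPM in MPNP at 12 hpf, 4.75 and 7.23 at 14 hpf, and 5.72 and 7.84 at 16 hpf. The PNP libraries held 0.51 and 0.85 TPM at 12 hpf, 0.55 and 0.94 at 14 hpf, and 0.82 and 1.04 at 16 hpf. The MPNP libraries lay above every PNP library of the series from 12 hpf on, whereas at 8 hpf MPNP held 0.64 and 0.47 TPM between the PNP values of 0.91 and 0.14. The difference was 1.99 ± 0.28 at 14 hpf (limma, adjusted p = 0.00326), 2.00 ± 0.28 at 16 hpf (adjusted p = 0.00182) and 1.12 ± 0.12 on average (adjusted p = 0.000116). rspo1 passed the filter through its MPNP libraries, since the highest PNP library held 1.04 TPM, so its being tested is no independent sign of a difference. With no filter on low values the adjusted p was 0.00683 at 14 hpf, 0.00253 at 16 hpf and 0.0003 on average. With the offset as a covariate the average (1.17) kept an adjusted p of 0.0144. The average and the 16 hpf difference passed without each library in turn, and the 14 hpf difference was lost in 2 of the 20 such fits, without MPNP replicate 2 (1.73, adjusted p = 0.0640) and without PNP replicate 1 (1.83, adjusted p = 0.0507), both at 14 hpf. It was also lost when only the libraries of 14 hpf were fitted (1.99, adjusted p = 0.255), a fit with too few libraries to decide. The call of the average was lost with the libraries numbered 1 alone (0.96, adjusted p = 0.204) or numbered 2 alone (1.29, adjusted p = 0.0612). Those fits assumed the same pool difference at every stage, so its change over the stages counted as spread, and they cannot decide. An F test of whether the rspo1 difference varied over the stages gave an adjusted p of 0.174, and 0.0334 with the replicate block. Beside the rspo1 and fzd9 differences at 16 hpf, the summed TPM of the 4 germ cell markers was higher in MPNP, at 7.17 and 9.43 against 5.51 and 6.69, and that of the 12 neural markers was lower, at 673 and 679 against 759 and 770.2. The tailbud sums were lower as well, and 5 of the 9 lists overlapped. The summed maternal transcripts were also lower, at 29.5 and 31.3 TPM in MPNP against 31.9 and 44.95 in PNP. Of that list org was higher in MPNP in the average over the stages (0.61 ± 0.07, limma, adjusted p = 0.000192). There h1m was also higher and zar1 and zp2.1 were lower, without a call. The part of these markers in the differences was not tested.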

How the data were processed

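Poly(A) RNA from pooled whole zebrafish embryos was sequenced as paired reads on a HiSeq, per the labels' protocols. The authors deposited TPM values, rounded to 2 decimals, for 32057 Ensembl gene IDs in 20 libraries. The submitters' processing notes name STAR 2.7.3a, HTSeq 0.12.3, RSEM 1.3.3, DESeq2 1.42.1, R 4.3.3 and the build GRCz11. The sources used here do not give which of them made the TPM. Depth is unknown, as TPM do not carry it, and counting intervals are therefore left out. A gene name table gave symbols to 28988 IDs. Of the 63 genes 62 matched the naming rule exactly and 1, PTK7, after a paralog letter was dropped. Symbols shared by several IDs (10 symbols, 20 IDs) are printed with the ID.

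Values were analysed as log2(TPM + 1) for the 14774 genes with a mean of at least 1 TPM. The 10 group means over the 20 libraries were estimated in 1 model (limma 3.58.1, R 4.3.3) with a trended prior and 2-sided tests, with Benjamini-Hochberg adjustment over all genes and a threshold of 0.05. The fit was tested on simulated libraries with independent noise, which lack the shared deviation of same-numbered libraries given below. Contrasts were MPNP minus PNP per stage, their average and an F test over the stages, and the steps between stages in PNP. Whether replicate libraries stem from separate crosses is not said in the labels. The p-values therefore reflect the spread among these libraries alone, which may be technical. Same-numbered libraries deviated together, with r of 0.485, 0.586, 0.615, 0.539 and 0.601 at the 5 stages. They were taken as pairs in the replicate block, a pairing that comes from the data and not from the labels.

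Alternatives were a pseudocount of 0.1, no filter, median-of-ratios rescaling, the block, a developmental offset (hours along the mean stage slope of other genes), single-stage fits, each replicate number alone and leaving out each library. The alternatives for low genes with the block or without a library, and for the named pathway genes, were added after seeing the data. Named were genes called between the pools, the 3 highest in each role, up to 3 with the largest rise and fall in each, a set known from fish gastrulation and, per pathway list, up to 4 by pool difference and up to 4 by developmental change. Not every gene so chosen is printed, and the genes under the filter were named after their values were seen. The genes, lists and tests were chosen with earlier results of these data known. Coordinates and sequences were not used here.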

Additional observations from a re-analysis of the deposited data

Results flagged for a closer look

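The MPNP minus PNP difference of ror2, the Wnt5 receptor gene, varied over the stages by a test whose call depended on the setting. Its log2 values were -0.62 at 8 hpf and -1.42 at 10 hpf, and its TPM in the 2 pool types overlapped at 14 and 16 hpf. An F test of the difference itself over the 5 stages gave an adjusted p of 0.0422 (limma), and 0.0254 with the replicate block. The call was lost with a pseudocount of 0.1 (adjusted p = 0.0863), with the developmental offset (0.232) and in 19 of the 20 fits that left out a library (adjusted p up to 0.187). The groups of 2 libraries are too small to look for single outlying samples.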

How the results depend on the processing

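The count of tested genes called between MPNP and PNP was 1 at 8 hpf after rescaling and 2 with the replicate block, against 0. At 10 hpf it was 3 with the block and 0 with the offset or the stage alone, the latter a fit with too few libraries to decide, against 1. At 12 hpf it was 1 with the block, at 14 hpf 2 without the filter, and at 16 hpf 1 without the filter and 1 with the block, each against 0. In the average the count was 3 without the filter, fzd9 (ENSDARG00000035185) among them, 2 after rescaling (ror2 and fzd2), 8 with the block and 0 with the offset, against 1. It was 0 with libraries numbered 1 only or with those numbered 2 only, fits that cannot decide where a difference changed with stage. For the F test over stages it was 0 with a pseudocount of 0.1 and 0 with the offset, against 1. The PNP step from 12 to 14 hpf gave 29 with the block, against 15, and that from 14 to 16 hpf gave 13 without the filter, 15 with the block and 11 in MPNP, against 6. Shares over all genes are not given for rescaling, the offset, the pseudocount of 0.1, the single-stage fits or the fits of a single replicate number. Nor are they given for the PNP step from 14 to 16 hpf without the filter. Whether all genes lost or gained calls alike in these settings cannot be read here, and the counts are descriptions. The causes of these shifts were not tested. The block changed no other call of the 44 genes between the pools or from 8 to 16 hpf in PNP than those named in the report.

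Leaving out each library gave 0 to 0 calls at 8 hpf, 1 to 1 at 10 hpf, 0 to 1 at 12 hpf, 0 to 0 at 14 and 16 hpf, 1 to 3 in the average and 0 to 1 for the F test. The 12 hpf count was 1 without MPNP replicate 1 at 12 hpf. The average count was 3 without PNP replicate 1 at 10 hpf or MPNP replicate 1 at 12 hpf, and 2 without either PNP library at 12 or 14 hpf, MPNP replicate 2 at 14 hpf or MPNP replicate 2 at 16 hpf. In PNP the ranges were 35 to 36 from 8 to 16 hpf, 35 to 36 for any change, and 11 to 12, 12 to 15, 10 to 11 and 2 to 5 for the 4 steps. The ranges for a single stage or step come only from leaving out each of the 4 libraries it compares. That for any change comes from the 10 PNP libraries, and those for the average and the F test from all 20. Libraries of other stages also enter the shared spread, and the stage and step ranges do not cover their removal. In the fits that left out a library, the lone library of its group was assumed to vary like the other groups. Of the counts recomputed 109 were within 1.5 times the reported one and 53 were not, and of the single-gene values 273 kept their call and 32 lost it. Depth is unknown, which limits what can be said of genes near 0 TPM.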

Other observations

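Libraries of the same group differed by replicate number in some of these genes. Over the 10 pairs of libraries of a group, replicate 2 was higher than replicate 1 in every pair for 12 of the 44 tested genes (27.3%, against 22.7% of all genes) and lower in every pair for 2 (4.55%, against 6.9%). The genes lower in every pair were wnt8a (ENSDARG00000052910), with a median log2 difference of -0.60, and lrp6, with -0.43. Among those higher in every pair were sfrp1 (ENSDARG00000035521) with 0.54, frzb with 0.51 and vangl2 with 0.37. What the replicate number stands for is not given in the labels.

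Where a symbol belonged to 2 IDs, 1 of them supplied most of the transcript for some symbols and not for others. The mean over the 20 libraries was 145.5 and 0.559 TPM for the sfrp1 IDs, 16.3 and 0.846 for the prickle2 IDs, and 13.6 and 4.63 for the fzd3 IDs. The fzd8 IDs were closer, at 57.1 and 51.8 TPM, with the first higher in 15 of 20 libraries. So were the wnt8a IDs, at 28.1 and 27.6 TPM, with the first higher in 12 of 20. The means were 309 and 193 TPM for the fzd7 IDs, 31.7 and 21.0 for the prickle1 IDs, and 0.174 and 0.0945 for the dkk3 IDs.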
